A study of Sus scrofa with 6 samples.

Results

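Before a muscle fibre can burn a long-chain fatty acid, the acid has to be released from blood lipoproteins, brought across the cell membrane and joined to coenzyme A. The genes described here carry out or restrain those steps. The list had 10 genes, CD36, FABP3, LPL, GPIHBP1, ANGPTL4, ACSL1, SLC27A1, SLC27A4, MLYCD and ACOT2, and was made by function. A gene was taken where an Ensembl pig gene ID of the deposited table carried its current symbol, which held for 4 of the 10, SLC27A1, SLC27A4, ACSL1 and ANGPTL4, among 25322 IDs in all. The other 6 could not be matched to an ID with the gene name table used and are not analysed here, so the lipase itself, its capillary anchor, the scavenger receptor CD36 and the muscle fatty acid binding protein have no value in this account.

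RNA was sequenced from longissimus dorsi, the long back muscle, of 6 healthy female Tibetan pigs, 1 library per animal. The low altitude group was 3 pigs of a Tibetan line kept for generations on the Chengdu plain, at an average of 500 m, held under experimental conditions and fed daily. The high altitude group was 3 Tibetan pigs ranging freely in the highland, at an average of 4000 m. Altitude therefore cannot be told apart from feeding, housing and lineage, and neither the ages of the animals nor the hours since their last meal are stated. The series asks how muscle differs in Tibetan pigs that live in the lowland, so fold changes are low altitude over high altitude and a positive log2 value is higher at low altitude.

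The pathway works in a chain. Lipoprotein lipase, held on the inner surface of capillaries, frees fatty acids from triglyceride-rich lipoproteins, and the secreted protein ANGPTL4 inactivates it. The fatty acid transport proteins of the SLC27 family take part in uptake and also have acyl-CoA synthetase activity, and ACSL1 is the long-chain acyl-CoA synthetase best known from mouse heart, muscle and fat, where its product is routed largely to oxidation. Several of these genes respond to the PPAR nuclear receptors, which sense fatty acids, and ANGPTL4 is widely used as a readout of fasting and of raised circulating fatty acids in mouse and human muscle.

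Values are FPKM, read fragments scaled by transcript length and by library size, so levels of different genes can be compared. The table summed to 506611 to 566907 FPKM in the low altitude libraries and to 526368 to 571855 in the high altitude libraries, and read depth itself is unknown from such a table. The 5 of 8 defining skeletal muscle markers that could be matched were all abundant, led by the glycogen phosphorylase PYGM and desmin (DES), and summed to 6604 to 7143 FPKM at low and 5694 to 9200 at high altitude. Slow fibre markers, led by TNNC1 and TNNT1, summed to 3106 to 4707 at low and 2751 to 10493 at high altitude (4 of 8 matched), and fast fibre markers, led by MYL11 and TNNC2, to 30878 to 32283 and 28056 to 36007 (4 of 10 matched). Endothelial markers, led by PECAM1 and EGFL7, summed to 62.7 to 83.5 at low and 47.2 to 76.1 at high altitude (8 of 12), and macrophage markers, led by C1QA and MRC1, to 32.5 to 78.6 and 39.9 to 55.8 (6 of 10). Adipocyte markers summed to 503 to 575 at low and 413 to 830 at high altitude (6 of 12), most of it from GPD1, which muscle also expresses, followed by CIDEC, and RETN was listed at 0 in all 6 libraries. In each of these sums, which a few abundant genes dominate, the groups overlapped. Of the 30 tested markers 0 passed limma's adjusted threshold. An unadjusted p under 0.05 was seen in 3, KDR, ROBO4 and MYL3, beside 9.42% of all tested genes. All 4 slow fibre markers had estimates below 0, with a median log2 fold change of −0.73, but the highland animals did not agree. In TNNC1, TNNT1 and TNNI1 high altitude library 1 was the highest of all and high altitude library 2 the lowest. TNNC1 was at 4891, 952 and 2609 in high altitude libraries 1, 2 and 3. MYL3 was at 627 in high altitude library 2, below low altitude library 2 at 672. Single markers whose groups did not overlap were NEB, ROBO4 and CD14, above at low altitude, and the endothelial receptor KDR, below. KDR was at 1.90, 4.75 and 1.97 at low and 5.74, 7.69 and 7.22 at high altitude. These markers were named after their values were seen. Over all tested genes, 11.3% lay above at low altitude and 4.80% below without overlap, so such counts do not set the markers apart. Where RNA comes from whole muscle, a change in the number of cells of a type and a change of RNA per cell cannot be told apart.

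None of the 4 genes passed the test between altitudes, and their levels overlapped between the groups in every case. The test was limma on log2(FPKM + 1) with Benjamini-Hochberg adjustment over all 10005 genes that reached an FPKM of 1 in at least 3 libraries, at a threshold of 0.05. It called 23 genes, 0.230% of those tested, 16 higher (0.160%) and 7 lower (0.0700%) at low altitude, or 26 higher and 6 lower once the libraries were rescaled to a common total. Beside so small a share, a count of 0 of 4 does not set these genes apart from the rest. At an unadjusted p under 0.05, which 9.42% of tested genes reached, the count was also 0 of 4. The median log2 fold change of the 4 was −0.15, against 0.04 over all tested genes, with 1 estimate above 0 and 3 below.

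**Figure D1:**
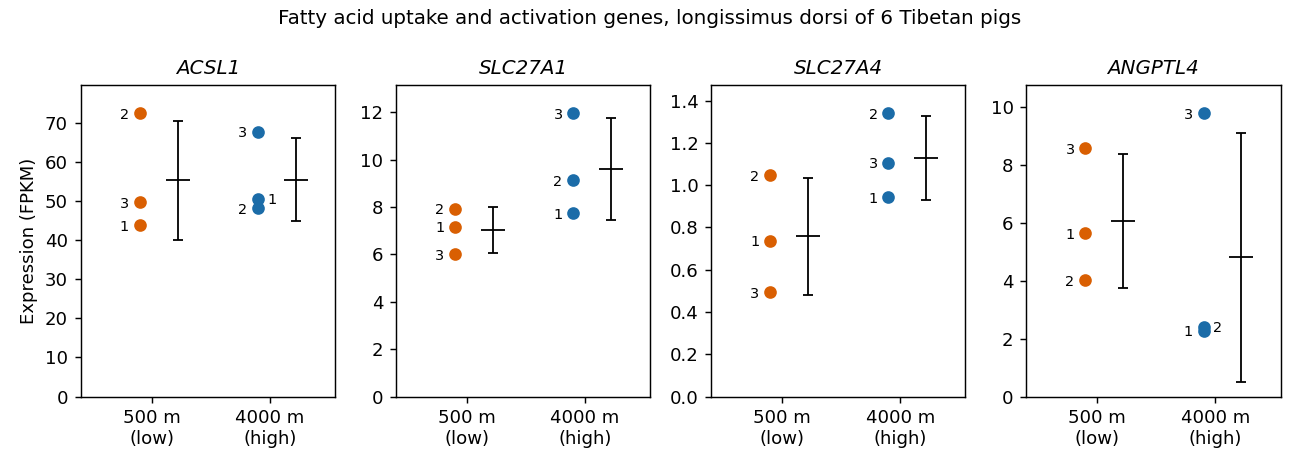
Expression in FPKM (y axis, from 0, a scale of its own in each panel) of ACSL1, SLC27A1, SLC27A4 and ANGPTL4 in each library, low altitude (500 m) left and high altitude (4000 m) right. Numbered points are animals and the bar is the mean with its SD (n = 3). The groups overlap in all 4 panels, and in the ANGPTL4 panel animal 3 at high altitude stands at 9.80, far above animals 1 and 2 of its group at 2.27 and 2.41.

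Of the transporters, SLC27A1 (ENSSSCG00000013879), known as FATP1, is a form that in rodent muscle moves to the surface with insulin. It was at 7.17, 7.92 and 6.01 FPKM in low altitude libraries 1, 2 and 3, against 7.73, 9.14 and 12.0 in high altitude libraries 1, 2 and 3. Animals 2 and 3 at high altitude were above every lowland animal, while animal 1 fell between lowland animals 1 and 2, so the groups overlapped by a single library. The means were 7.04 ± 0.961 at low and 9.61 ± 2.15 at high altitude (SD, n = 3), a ratio of 0.732. The log2 fold change was −0.39 (SE 0.19, 95% interval −0.83 to 0.05; limma, Benjamini-Hochberg adjusted p = 0.575). It had the smallest p of the 4 genes and ranked 1294 among the 10005 tested. Without high altitude library 3 the estimate was −0.23 (adjusted p = 0.652).

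SLC27A4 (ENSSSCG00000005648), or FATP4, is the transporter known for intestine and skin and is also found in muscle. It was at 0.737, 1.05 and 0.494 FPKM in low altitude libraries 1, 2 and 3, against 0.942, 1.34 and 1.11 in the high altitude libraries. Low altitude animal 2 was above high altitude animal 1, and the remaining lowland animals were below all 3 highland animals. The means were 0.759 ± 0.277 at low and 1.13 ± 0.200 at high altitude (SD, n = 3), a ratio of 0.672. The fitted log2 fold change was −0.28 (SE 0.16, 95% interval −0.66 to 0.10; limma, Benjamini-Hochberg adjusted p = 0.635). At this level the added 1 shrinks the change. With a pseudocount of 0.1 it was −0.56, and without low altitude library 3 it was −0.17. The gene met the expression filter narrowly, at an FPKM of 1 or more in 3 libraries, 1 at low and 2 at high altitude.

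Both transporters ranked the 6 animals in nearly the same way. From the lowest up, each ran low altitude 3, low altitude 1, high altitude 1 and low altitude 2, with high altitude 2 and 3 on top in different order. This order was noticed after the values were seen, and 63 of the 10005 tested genes (0.63%) had it. SLC27A1 exceeded SLC27A4 in all 6 libraries, by a factor of 6.82 to 12.2. It supplied 79.7, 73.9 and 77.8% of the summed FPKM of the 5 matched SLC27 genes at low altitude, and 76.7, 74.3 and 81.2% at high altitude, and the shares overlapped. The family sum was 8.99, 10.7 and 7.73 FPKM at low and 10.1, 12.3 and 14.7 at high altitude. Of the other family members, SLC27A3 was at 0.804 to 1.51 at low and 0.992 to 1.18 at high altitude (log2 fold change 0.02). SLC27A6, the form described in human heart, stayed under the filter and was not tested, at 0.285, 0.237 and 0.0654 at low and 0.418, 0.637 and 0.422 at high altitude. SLC27A2, a liver and kidney form, was listed at 0 in 5 libraries.

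**Figure D2:**
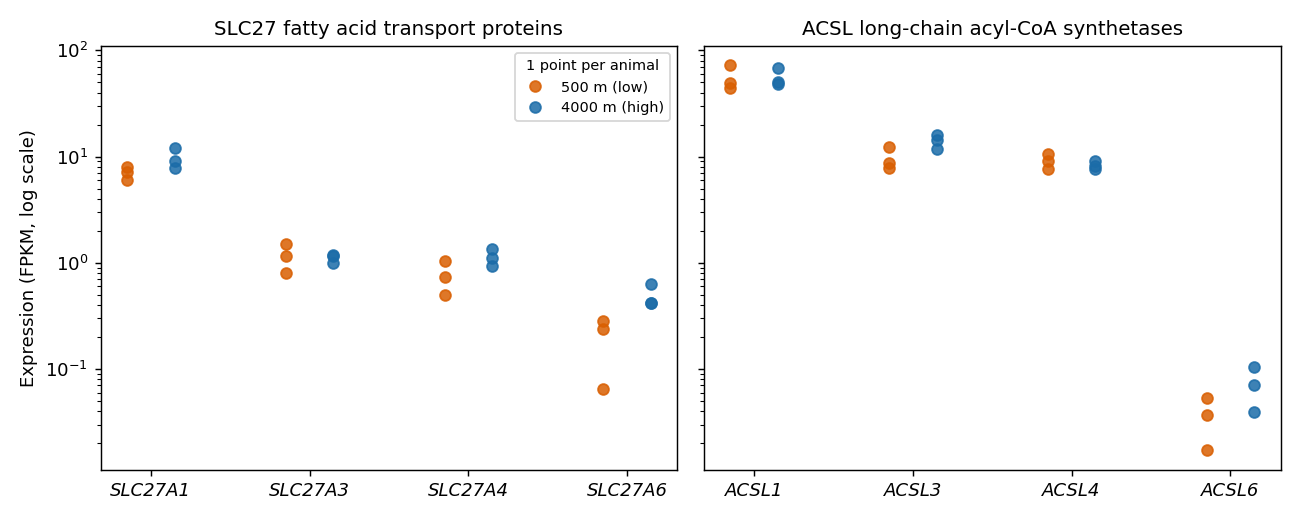
Expression in FPKM on a log axis of SLC27 genes (left panel) and ACSL genes (right panel), 1 point per animal, low altitude left of high altitude for each gene. SLC27A1 lies between 6.01 and 12.0 and ACSL1 between 43.8 and 72.4, each above every other plotted member of its family in all libraries, with ACSL6 at 0.105 or less.

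ACSL1 (ENSSSCG00000015784), which activates the acid once it is inside, had the highest level of the 4 genes. It was at 43.8, 72.4 and 49.7 FPKM in low altitude libraries 1, 2 and 3, against 50.5, 48.1 and 67.7 in the high altitude libraries. The highest and the lowest value were both from lowland animals, and the highland range lay inside the lowland range. The means were 55.3 ± 15.1 at low and 55.4 ± 10.7 at high altitude (SD, n = 3). The log2 fold change was −0.02 (SE 0.23, 95% interval −0.57 to 0.52; limma, Benjamini-Hochberg adjusted p = 0.986), and its sign changed with the scaling and with the animals included. The interval still admits a change of about 0.5 on the log2 scale in either direction. ACSL1 ranked 684 of 25322 by mean FPKM.

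Among long-chain synthetases ACSL1 held 72.2, 78.5 and 72.1% of the summed FPKM of the 4 matched ACSL genes at low altitude, against 69.1, 69.8 and 74.0% at high altitude. The shares overlapped. ACSL3, a form tied to lipid droplet growth, was at 7.80, 12.2 and 8.68 FPKM at low and 14.3, 11.7 and 16.1 at high altitude, a log2 fold change of −0.52 (95% interval −0.99 to −0.05; limma, Benjamini-Hochberg adjusted p = 0.481). ACSL4, which prefers arachidonic acid, was at 7.63 to 10.5 and 7.66 to 9.10 (log2 fold change 0.11). ACSL6, a brain form, was at 0.105 or less in every library and was not tested. Of the 10 matched genes in the list of other acyl-CoA synthetases, 8 were tested and 0 passed limma's adjusted threshold. Only 1, ACSL3, had an unadjusted p under 0.05, beside 9.42% of all tested genes. The acetyl-CoA synthetases ACSS2 and ACSS1, the next by p, averaged 13.7 ± 1.40 and 4.93 ± 1.02 FPKM at low and 15.6 ± 1.02 and 4.28 ± 0.918 at high altitude (limma, Benjamini-Hochberg adjusted p = 0.732 and 0.831).

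ANGPTL4 (ENSSSCG00000013599), the inhibitor of lipoprotein lipase, varied most. It was at 5.65, 4.02 and 8.58 FPKM in low altitude libraries 1, 2 and 3, against 2.27, 2.41 and 9.80 in the high altitude libraries. Highland animals 1 and 2 had the lowest values of the 6, and highland animal 3 the highest. The means were 6.08 ± 2.31 at low and 4.82 ± 4.31 at high altitude (SD, n = 3), a ratio of 1.26. The log2 fold change was 0.47 (SE 0.48, 95% interval −0.66 to 1.60; limma, Benjamini-Hochberg adjusted p = 0.803). The size rested on single libraries. Without high altitude library 3 the estimate was 1.04 (adjusted p = 0.389), and without high altitude library 1 it was 0.17, without high altitude library 2 it was 0.20 and without low altitude library 3 it was 0.23. The coefficient of variation over the 6 libraries was 58.1%, and 95.1% of tested genes had a lower one. It was 31.4% for SLC27A4, 24.7% for SLC27A1 and 21.2% for ACSL1, against a median of 20.0% over all tested genes. The adipocyte marker PLIN1 was also highest in high altitude library 3, at 11.2 FPKM, and stood at 2.08, 3.91 and 5.66 at low altitude and at 1.90 and 4.97 in high altitude libraries 1 and 2. The adipocyte markers CIDEC and PCK1 were highest in that library too, at 10.8 and 4.75, while LIPE was highest in low altitude library 3, at 11.7. Without GPD1, a setting chosen after seeing the data, the 5 other matched adipocyte markers summed to 9.19, 14.6 and 24.8 at low and 5.95, 17.1 and 33.9 at high altitude. High altitude library 3 was highest in this sum, as in ANGPTL4, and with GPD1 included high altitude library 2 was highest, at 830. The part of adipocytes in the ANGPTL4 values was not tested.

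By level, ACSL1 stood 5.27 to 9.14 times above SLC27A1 within a library. SLC27A1 exceeded ANGPTL4 in 5 of 6 libraries and was below it in low altitude library 3, so these neighbours were not separated beyond their spread. ANGPTL4 was 1.80 to 17.4 times SLC27A4, and their ranges did not meet.

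The genes whose pattern over the 6 libraries was most like that of SLC27A1 and of ACSL1 were looked up among 3202 tested genes with a symbol and a mean FPKM of at least 5. Likeness was the root mean square difference between z-scores, where 0 is the same pattern. For SLC27A1, which had the smallest p of the 4, they were SNRPF (0.174), TJP1 (0.211), IDH1 (0.217), CHTOP (0.232) and LPCAT3 (0.238). For ACSL1, which had the highest level, they were the peroxisomal acyl-CoA thioesterase ACOT8 (0.148), SELENOS (0.159), TXNRD1 (0.165), DNAJC4 (0.213) and TIMM13 (0.221). ACOT8 was at 5.83, 7.71 and 6.28 FPKM at low and 6.38, 6.11 and 7.11 at high altitude, highest in low altitude animal 2 and next in high altitude animal 3, as ACSL1 was. That pair of animals led in 643 of the tested genes, 6.43%.

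Around these 4 genes, 7 lists of the same pathway held 97 further genes, of which 71 could be matched and 59 were tested. By limma with Benjamini-Hochberg adjustment 0 of the 59 passed, and 9 had an unadjusted p under 0.05, beside 9.42% of all tested genes. The groups did not overlap in 8 with low altitude above and in 4 with low altitude below, where 11.3% and 4.80% of all tested genes did the same. Their median log2 fold change was 0.06, against 0.04 over all tested genes.

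**Figure D3:**
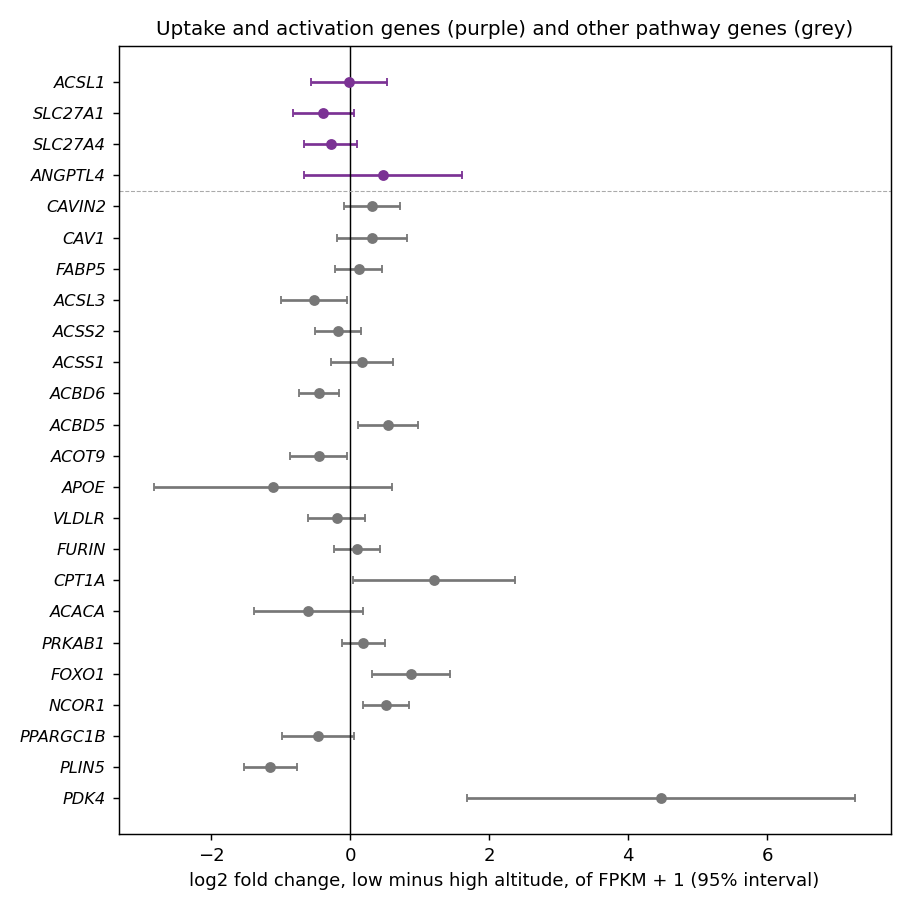
Log2 fold change of FPKM + 1, low minus high altitude, with its 95% interval from limma (x axis) for ACSL1, SLC27A1, SLC27A4 and ANGPTL4 (purple, above the dashed line) and for the pathway genes with the smallest p in each list (grey). The intervals of the 4 purple genes include 0, PLIN5 lies at −1.15 and PDK4 at 4.47, and none of the genes passed after adjustment over all tested genes.

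In uptake and intracellular binding, 5 of 7 matched genes were tested, and 0 passed limma's adjusted or unadjusted threshold. Their median log2 fold change was 0.12. CAVIN2 and CAV1, which build the caveolae of endothelium and other cells, averaged 4.28 ± 0.663 and 76.4 ± 15.8 FPKM at low and 3.26 ± 0.694 and 61.2 ± 12.2 at high altitude (limma, Benjamini-Hochberg adjusted p = 0.618 and 0.694). The groups overlapped in CAV1. In CAVIN2 low altitude lay narrowly above without overlap, 3.86 in library 1 against 3.84 in high altitude library 3, as did 11.3% of all tested genes. FABP5, a fatty acid binding protein of many cell types, was at 97.0, 96.9 and 96.3 at low and 98.5, 78.2 and 91.7 at high altitude (adjusted p = 0.841 in limma with Benjamini-Hochberg adjustment).

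Among acyl-CoA thioesterases and binding proteins, 6 of 7 matched genes were tested, 0 passed limma's adjusted threshold and 3 had an unadjusted p under 0.05, with a median log2 fold change of −0.03. ACBD6, an acyl-CoA binding protein, was at 9.30, 8.93 and 9.56 FPKM at low and 13.9, 12.5 and 12.7 at high altitude. ACBD5, which tethers peroxisomes to the endoplasmic reticulum, went the other way, at 14.0, 14.9 and 13.4 at low and 7.01, 10.8 and 10.7 at high altitude. The mitochondrial thioesterase ACOT9 was at 10.8, 13.9 and 9.38 at low and 16.6, 14.3 and 16.6 at high altitude. In each of these 3 genes the groups did not overlap, and the log2 fold changes were −0.45, 0.55 and −0.46 (limma, Benjamini-Hochberg adjusted p = 0.332, 0.423 and 0.478). Over all tested genes 9.42% had an unadjusted p under 0.05. Without overlap, 11.3% of them lay above at low altitude and 4.80% below. With so few genes in a list, these counts are description only.

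Among genes that mature or control lipoprotein lipase and among lipoprotein receptors, 7 of 12 matched genes were tested, and 0 passed limma's adjusted or unadjusted threshold. Their estimates had a median log2 fold change of 0.07. VLDLR, which binds triglyceride-rich particles in muscle and heart, averaged 40.1 ± 5.93 at low and 46.0 ± 5.69 at high altitude (log2 fold change −0.20, Benjamini-Hochberg adjusted p = 0.759 in limma; −0.07 without low altitude library 3 and −0.12 without high altitude library 3). APOE was at 7.05, 17.3 and 14.5 at low and 9.16, 85.0 and 25.9 at high altitude, with the highland mean carried by animal 2 (estimate −1.12 on the log2 scale, Benjamini-Hochberg adjusted p = 0.681 in limma; −0.33 without high altitude library 2 and −1.87 without high altitude library 1). FURIN, a protease that cleaves the lipase and its inhibitors, averaged 6.37 ± 0.682 at low and 5.92 ± 0.640 at high altitude (log2 fold change 0.09, Benjamini-Hochberg adjusted p = 0.885 in limma). LMF1, which the lipase needs to fold, was at 6.54, 11.2 and 10.2 at low and 5.52, 8.04 and 11.9 at high altitude. It lay outside the naming rule and was chosen after its values were seen.

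In the next step, the carnitine shuttle and its brake malonyl-CoA, 10 of 11 matched genes were tested and 0 passed limma's adjusted threshold. An unadjusted p under 0.05 was seen in 1, beside 9.42% of all tested genes. The median log2 fold change was 0.04. CPT1A, the liver form of the enzyme that hands activated fatty acids to carnitine, was at 5.17, 3.56 and 10.2 FPKM at low and 1.33, 0.847 and 5.01 at high altitude. High altitude animal 3 was above low altitude animal 2, and the log2 fold change was 1.20 (95% interval 0.04 to 2.36; limma, Benjamini-Hochberg adjusted p = 0.506). CPT1B, the muscle form, was at 16.8, 28.0 and 21.7 at low and 26.4, 16.9 and 24.1 at high altitude, a log2 fold change of −0.02, and was set beside CPT1A after its values were seen. ACACA, which makes malonyl-CoA, averaged 1.25 ± 0.359 at low and 2.63 ± 1.47 at high altitude (limma, Benjamini-Hochberg adjusted p = 0.620). It was at 0.960, 3.21 and 3.73 in high altitude libraries 1, 2 and 3, the first below every lowland value. The listed ACACB could not be matched, so ACACA does not stand for the whole of this step. PRKAB1, a subunit of the kinase that inhibits ACACA, averaged 2.60 ± 0.239 and 2.16 ± 0.284 (limma, Benjamini-Hochberg adjusted p = 0.703). Its low altitude values lay narrowly above without overlap, 2.43 in library 2 against 2.40 in high altitude library 3, as did 11.3% of all tested genes.

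Of the PPAR receptors and their partners all 10 matched genes were tested, 0 passed limma's adjusted threshold and 2, FOXO1 and NCOR1, had an unadjusted p under 0.05, with a median log2 fold change of −0.04. FOXO1, a forkhead factor active in fasted muscle, was at 7.49, 5.70 and 9.61 FPKM at low and 2.58, 3.70 and 4.82 at high altitude (estimate 0.87 on the log2 scale, Benjamini-Hochberg adjusted p = 0.325 in limma). The corepressor NCOR1 was at 8.61, 8.38 and 8.64 at low and 4.82, 5.80 and 6.56 at high altitude (estimate 0.51 on the log2 scale, Benjamini-Hochberg adjusted p = 0.332 in limma). In both genes the groups did not overlap, with low altitude above, as in 11.3% of all tested genes. An unadjusted p under 0.05 was reached by 9.42% of all tested genes. PPARGC1B, a coactivator of mitochondrial genes, was at 0.989, 1.28 and 0.521 at low and 1.05, 1.77 and 2.19 at high altitude, with low altitude animal 2 above high altitude animal 1 (estimate −0.46, Benjamini-Hochberg adjusted p = 0.575 in limma).

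Of 18 matched PPAR-responsive genes beyond the 4, 17 were tested, 0 passed limma's adjusted threshold and 3 had an unadjusted p under 0.05, namely PLIN5, PDK4 and CPT1A. Over the 17 the median log2 fold change was 0.07. PLIN5, which coats lipid droplets in oxidative muscle, was at 1.74, 3.002 and 2.51 FPKM at low and 6.64, 6.37 and 6.45 at high altitude. PDK4, the kinase that shuts pyruvate out of the citrate cycle when fat is burned, was at 321, 130 and 527 at low and 22.9, 0.722 and 48.3 at high altitude. The groups did not overlap in either gene, with log2 fold changes of −1.15 and 4.47 (limma, Benjamini-Hochberg adjusted p = 0.0732 and 0.313). Over all tested genes, 4.80% lay below at low altitude without overlap, as PLIN5 did, and 11.3% above, as PDK4 did. An unadjusted p under 0.05 was reached by 9.42%. PLIN5 passed with limma's array weights, at an adjusted p of 0.0477.

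**Figure D4:**
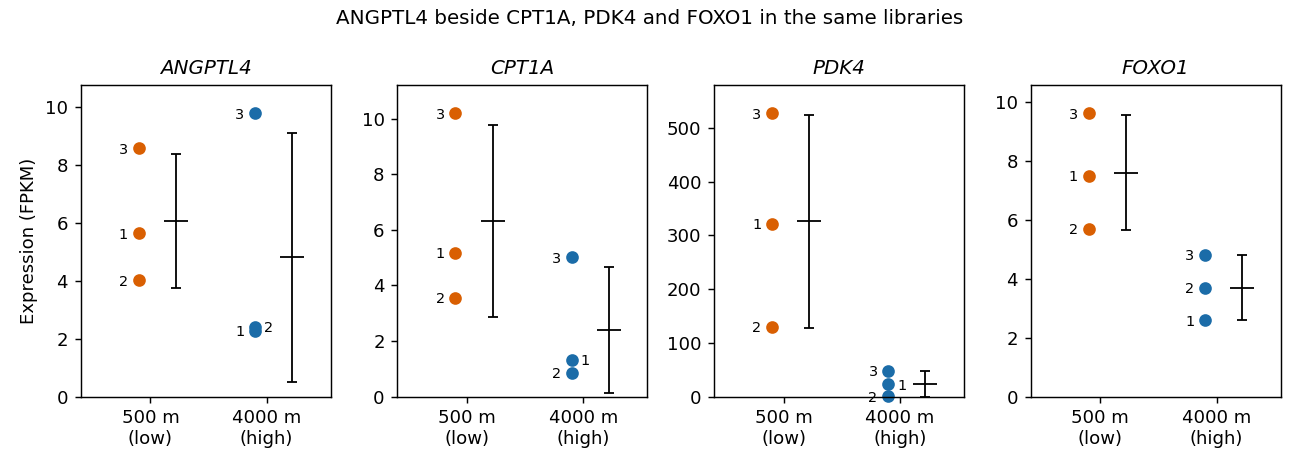
Expression in FPKM (y axis, from 0, a scale of its own in each panel) of ANGPTL4, CPT1A, PDK4 and FOXO1 in each library, low altitude (500 m) left and high altitude (4000 m) right. Numbered points are animals and the bar is the mean with its SD (n = 3). Within the low altitude group animal 3 is highest and animal 2 lowest in all 4 panels, and animal 3 is highest within the high altitude group.

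ANGPTL4 shared with CPT1A, PDK4 and FOXO1 its order of animals at low altitude and its highest animal at high altitude. At low altitude each of the 4 was highest in animal 3, then in animal 1, then in animal 2. At high altitude each was highest in animal 3, while animals 1 and 2 came in different order. The pattern was noticed after the values were seen, and 520 of the 10005 tested genes, 5.20%, had it. CPT1A, PDK4 and FOXO1 were picked for the comparison by hand, and other list genes had the pattern too. NCOR1 was at 8.61, 8.38 and 8.64 FPKM at low and 4.82, 5.80 and 6.56 at high altitude. LMF2, chosen after its values were seen, was at 8.08, 7.88 and 8.40 at low and 6.22, 8.11 and 9.06 at high altitude. In the list of other PPAR-responsive genes, only PDK4 and CPT1A had the pattern. The PPAR-responsive gene UCP3, for example, did not have it. UCP3 was at 22.4, 24.4 and 70.5 FPKM at low and 4.18, 14.3 and 24.7 at high altitude, so low altitude animal 1 was the lowest of its group. A shared control of ANGPTL4, CPT1A, PDK4 and FOXO1 was not tested. Between the groups ANGPTL4, CPT1A, PDK4 and FOXO1 were unlike. PDK4 and FOXO1 had no overlap, CPT1A overlapped by high altitude animal 3, and ANGPTL4 in that animal was above every lowland value.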

How the data were processed

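Strand-specific RNA libraries were made from frozen longissimus dorsi, 1 per animal, per the labels' protocols. TopHat2 2.0.11 and Cufflinks 2.2.1 are named in the submitters' processing notes. The sources used here give neither their roles nor a genome build or annotation, and coordinates are therefore left out. The authors deposited FPKM values for 25322 Ensembl gene IDs, and 11804 IDs matched a symbol in the gene name table. Read depth cannot be had from FPKM, and counting error is therefore not given.

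From these values, log2(FPKM + 1) was fitted for the 10005 genes that reached an FPKM of 1 in 3 or more libraries, with limma 3.58.1 in R 4.3.3 (trend, two-sided, Benjamini-Hochberg adjustment over all tested genes), checked on simulated data. Genes under the filter have values and no test. Figures used matplotlib 3.10.9 in Python 3.11.15. The genes and lists were chosen with earlier results of these data known. The text names the 4 matched genes, all genes past the threshold and otherwise the 3 with the smallest p of each list, the 2 leading markers of each cell type and the 5 genes most like SLC27A1 and ACSL1. Of the list genes, 2 are not reported here and are left out of the lists and their counts. Genes named outside this rule are family members set beside the 4, single markers, or are marked in the text, and were chosen after their values were seen. The alternatives changed the pseudocount (0.1, 0.5), the filter (none, or a mean FPKM of at least 5), the scaling (common total, median of ratios, quantiles) or the fit (no trend, array weights, replicate block), or left out each library in turn. One more, chosen after seeing the data, dropped genes that are listed at 0 for some library yet reach an FPKM of 5 for another.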

Additional observations from a re-analysis of the deposited data

How the results depend on the processing

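Under 17 alternatives, 0 of the 4 genes passed in any fit. SLC27A1, SLC27A4 and ANGPTL4 kept their direction in each fit that tested them, and SLC27A4 was not tested at a mean FPKM of at least 5. ACSL1 turned positive with rescaling to a common total (0.054), and ranged from −0.23 to 0.13 over the fits that left out 1 library. In the pathway lists the count was 0 in all fits except array weights, where it was 1, PLIN5. The 20 named list genes kept their direction in all 333 combinations of gene and fit, but in 12 of them, none called, leaving out 1 library moved the estimate by over 1.5 times, down to 0.012 for FURIN without high altitude library 1 and 0.026 for FABP5 without high altitude library 2. The count over all genes, 23, was 6 with no filter, 9 under median-of-ratios scaling, 10 after quantile normalization, 38 with array weights, and 4 to 21 over the fits that left out 1 library. The cause was not tested. Same-numbered libraries did not deviate together (Pearson's r over 10005 genes of −0.015, 0.095 and −0.14, for numbers 1, 2 and 3), so the numbers are not taken to pair the animals. With the replicate block 19 genes passed, and 0 of the 4 and 0 of the list genes. With 3 animals a group the 95% intervals of the 4 genes were 0.76 to 2.26 wide on the log2 scale. The width is not a limit of detection, as the threshold was adjusted over all tested genes. Larger changes can also miss it, as PDK4 did at a log2 fold change of 4.47 (limma, Benjamini-Hochberg adjusted p = 0.313).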
